A study of Mus musculus with 6 samples.

Results

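Imprinted genes are genes of which the copy from the mother or the copy from the father is kept silent, and 41 of them from the best known mouse clusters were followed here across clones and cultures of embryonic stem (ES) cells. They were selected by symbol alone, all 41 were found among the 22602 genes of the expression table, and 29 of them had the mean level of at least 1 RPKM (reads per kilobase of cDNA, scaled to the depth of the library) that was required for testing, as did 11595 genes in all. The study induced the transcription factor gene Sim2 in mouse ES cells and sequenced their mRNA. The Sim2 group holds 1 culture from each of 3 clones, A6, B8 and C4, in which a Flag-tagged mouse Sim2 transgene was placed at ROSA26 behind a promoter that tetracycline keeps silent. The EB3 group holds 3 cultures of the parental line EBRTcH3 (EB3), which lacks the transgene, numbered 0, 1 and 2 (EB3-0, EB3-1 and EB3-2). All 6 cultures were grown on gelatin with LIF (leukemia inhibitory factor) and had been free of tetracycline for 26 h when RNA was taken, so the medium was the same in both groups and Sim2 and clonal origin changed together.

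Imprints are marks of DNA methylation that are laid down in the egg or the sperm and then maintained in every later cell division. One such mark usually governs a whole cluster, in which a noncoding RNA and the protein-coding genes around it are often expressed from opposite copies, so that a gained or lost mark can raise one gene and silence its partner. Cultured ES cells are known to gain and lose imprints, and clones of 1 line can then differ. The values below sum both copies of each gene, and which copy a read came from was not measured.

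The labels were checked first. Sim2 was at 196, 212 and 168 RPKM in A6, B8 and C4 and at 0.130, 0.0917 and 0.104 RPKM in EB3-0, EB3-1 and EB3-2. The 8 ES cell markers, among them Pou5f1, Nanog and Zfp42, summed to between 5562 and 7037 RPKM in each library. Markers of primitive endoderm summed to between 2.96 and 5.37 RPKM, and those of feeder fibroblasts to between 10.1 and 13.8, most of it from Thy1, with Lum and Postn at 0 in every library. Depth ran from 25095861 to 28269340 reads on genes, so that 1 read in a cDNA of 2 kb was worth at most 0.0199 RPKM, which covers counting error only. 2 libraries stood apart from the others across the genome: B8 among the clones, and EB3-0 among the cultures, which read long transcripts at lower levels than EB3-1 and EB3-2. EB3-1 and EB3-2 lay close together, with a median absolute log2 difference of 0.05 over the 29 tested imprinted genes against 0.20 between EB3-0 and EB3-1, and the SDs of EB3 below therefore rest largely on EB3-0.

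No tested imprinted gene passed the test between the Sim2 clones and EB3. That is 0 of the 29 tested members at an adjusted p under 0.05 (limma on log2(RPKM + 0.5), adjusted over all tested genes), where 0.699% of all tested genes passed. At an unadjusted p under 0.05 there were 2 members, Mkrn3 and Grb10, against 17.8% of all tested genes. The clone mean was the higher for 16 members and the lower for 13, and their median log2 difference was 0.05 against -0.01 over all tested genes. The differences ran from -0.87 for Grb10 to 0.70 for Peg3. In 3 of the 29, Rtl1, Mkrn3 and Tssc4, the clones and cultures did not overlap, which is 10.3% of them against 26.1% of all tested genes. These p-values measure the spread between 6 libraries of which 3 are single cultures of clones, so a difference between 2 clones has no replicate of its own. In bulk RNA, fewer cells that express a gene and less of its RNA in each cell cannot be told apart.

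Some imprinted genes varied widely from clone to clone, and some varied widely within EB3. The SD of log2(RPKM + 0.5) over A6, B8 and C4 reached 0.5 in 7 of the 29 tested members (24.1%), against 4.32% of all tested genes, a limit that was chosen after the values were seen. They were Nnat with an SD of 0.96, Peg10 with 0.91, Grb10 and Phlda2 with 0.86, Cdkn1c with 0.71, Sgce with 0.61 and Ndn with 0.53. Peg10 and Sgce lie close to each other, as do Cdkn1c and Phlda2, so these 7 are not 7 separate places in the genome. The same 7 reached the limit after trends with transcript length were removed from each library (4.17% of all tested genes) or trends with length and GC content (3.98%). B8 held the lowest of the 3 clone values in 6 of them and the highest in Nnat. Without B8 the limit was reached by 3 members, Peg10, Sgce and Slc22a18, against 1.4% of all tested genes. Over all 29 the median SD between clones was 0.21, against 0.14 for all tested genes. The limit of 0.5 was also reached by 5 of 23 tested genes on a list of other imprinted genes and cluster neighbours. They were Wars, Wdr25, Pon2, Ddc and Mcts2, so a wide spread was not particular to the members. Wars and Wdr25 lie in a stretch of chromosome 12, described below, where 45 of 46 tested genes were lower in B8 than the EB3 mean. A wide spread was not particular to the clones either. Within EB3 the limit was reached by 5 of the 29 members (17.2%), against 3.7% of all tested genes. Peg3 had the largest SD there, 0.94, close to the 0.96 of Nnat in the clones. The median SD within EB3 was 0.16 for the 29 members and 0.16 for all tested genes.

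**Figure D1:**
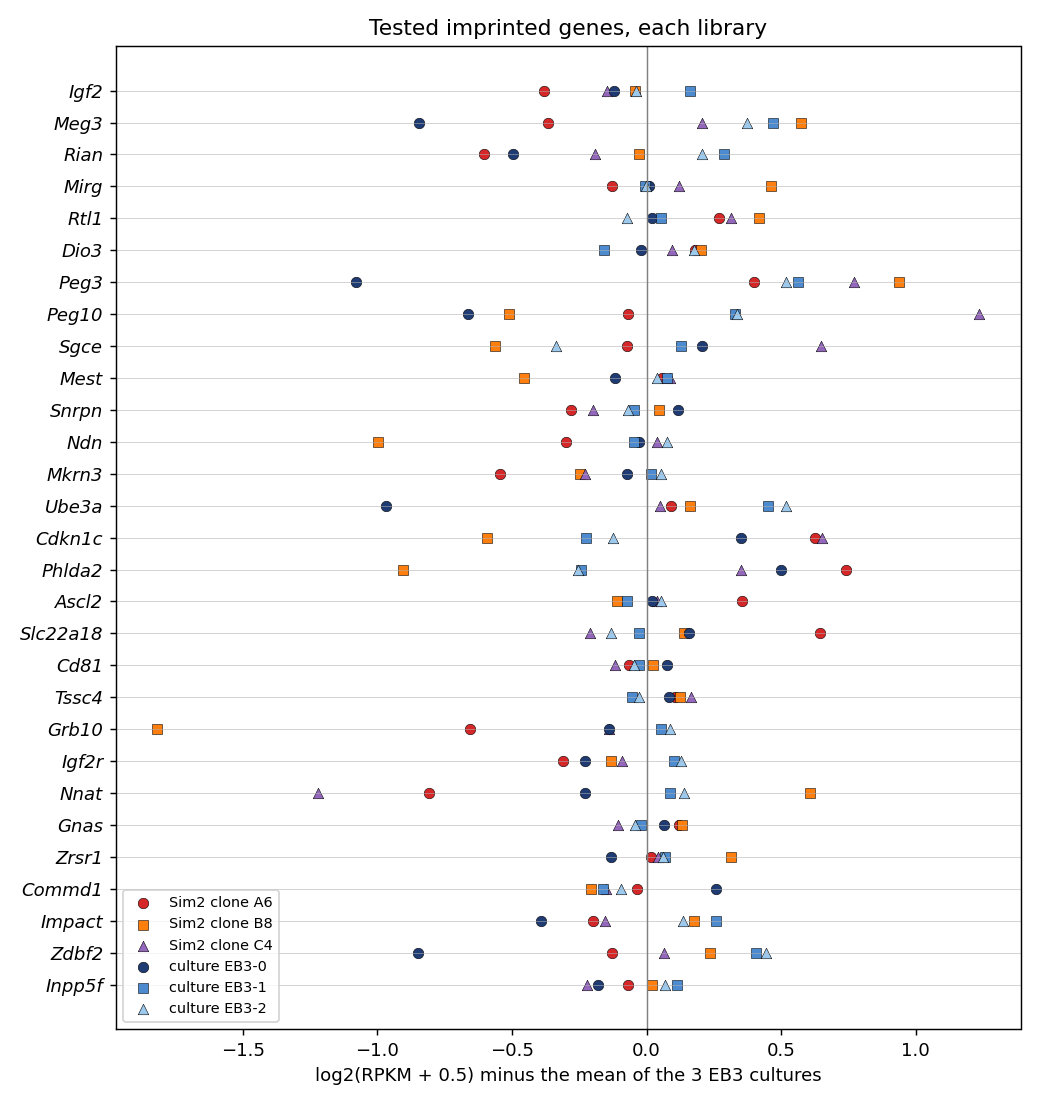
Level of each of the 29 tested imprinted genes in each library, as log2(RPKM + 0.5) minus the mean of the 3 EB3 cultures (horizontal axis), ordered by cluster. Warm and purple markers are the Sim2 clones and blue markers the EB3 cultures, and B8 reaches -1.82 for Grb10 while EB3-0 reaches -1.08 for Peg3.

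Promoter sequences are shown for 3 of these 7 genes, Grb10, Nnat and Phlda2, which differed most between the clones among those with an entry in the promoter table used here. They come from RefSeq on build GRCm38.p6 and span 250 bases before to 50 bases after a transcription start. The other coordinates in the text are those of the authors' table, on build mm9. Capitals mark the hexamer TGCCGC on either strand (GCGGCA on the other), which is the core of the sequence bound by ZFP57, a zinc finger protein known to hold methylation at imprints. Grb10 has 2 listed starts, both on the minus strand. The first, at chr11:12037371-12037670, lies in a CpG-rich stretch with 45 CpG dinucleotides and 1 hexamer, and the second, at chr11:12027922-12028221, has 9 CpG and no hexamer. The Nnat start at chr2:157559828-157560127 on the plus strand has 17 CpG and 1 hexamer, and the Phlda2 start at chr7:143502475-143502774 on the minus strand has 26 CpG and no hexamer.
Grb10 start 1: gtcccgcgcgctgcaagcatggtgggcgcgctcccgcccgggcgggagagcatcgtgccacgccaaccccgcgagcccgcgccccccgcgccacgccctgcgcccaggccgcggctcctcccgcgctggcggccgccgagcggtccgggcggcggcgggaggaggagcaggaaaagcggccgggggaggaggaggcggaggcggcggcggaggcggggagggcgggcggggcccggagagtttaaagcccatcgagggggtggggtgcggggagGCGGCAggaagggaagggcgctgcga
Grb10 start 2: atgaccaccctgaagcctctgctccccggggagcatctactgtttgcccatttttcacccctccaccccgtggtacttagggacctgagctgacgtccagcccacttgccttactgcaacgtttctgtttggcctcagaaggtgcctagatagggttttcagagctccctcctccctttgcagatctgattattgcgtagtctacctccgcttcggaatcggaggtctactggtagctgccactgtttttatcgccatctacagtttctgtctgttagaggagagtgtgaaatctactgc
Nnat: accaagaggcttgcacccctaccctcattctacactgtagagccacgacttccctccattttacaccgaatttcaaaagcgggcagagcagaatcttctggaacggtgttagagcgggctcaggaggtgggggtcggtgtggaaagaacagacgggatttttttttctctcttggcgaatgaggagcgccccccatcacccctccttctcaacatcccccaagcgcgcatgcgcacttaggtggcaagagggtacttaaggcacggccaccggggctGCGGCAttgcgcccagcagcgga
Phlda2: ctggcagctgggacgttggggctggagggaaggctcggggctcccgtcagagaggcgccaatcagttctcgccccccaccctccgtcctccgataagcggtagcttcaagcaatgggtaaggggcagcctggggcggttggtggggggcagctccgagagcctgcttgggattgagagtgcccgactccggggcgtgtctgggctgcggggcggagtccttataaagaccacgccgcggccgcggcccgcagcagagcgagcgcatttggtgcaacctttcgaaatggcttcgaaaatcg
Promoters were listed for 35 of the 41 members, at 51 starts. The hexamer was present at 12 of these starts (23.5%) and in 11.6% of all 32851 promoters of this length. The median number of CpG was 15 in the members' promoters and 7 in all promoters. The hexamer itself holds a CpG, so a higher share of it and a higher number of CpG cannot be told apart here. A match is a description of these letters and not a bound site.

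H19 and Igf2 share a control region on chromosome 7 and are expressed from opposite copies. H19 (chr7:149761437-149764051, minus strand), a noncoding RNA made from the mother's copy, was at 0 RPKM in A6, at 0.148 in B8 and at 0.0271 in C4. The cultures EB3-0, EB3-1 and EB3-2 had 1.35, 1.40 and 1.35 RPKM. The reads behind these values were 0, 10 and 2 in the clones and 96, 98 and 92 in the cultures, and 0 reads in A6 allows a level of up to 0.0457 RPKM. All 3 clones thus lay far below all 3 cultures. The clone mean was 0.0585 ± 0.0790 RPKM and the EB3 mean 1.36 ± 0.0317 RPKM (SD, n = 3 each), and the EB3 mean was 23.3 times the clone mean. Most clone reads were those of B8, and the ratio was 101 without B8, 15.6 without A6 and 18.4 without C4.

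H19 stayed under the minimum level for testing, with a mean of 0.712 RPKM over the 6 libraries. In a fit to all 22602 genes without that minimum it was lower in the clones. The difference was -1.75 ± 0.11 (SE) on the log2(RPKM + 0.5) scale, with an adjusted p of 0.0468 from limma, and 0.102% of those genes passed. The pseudocount makes this difference an understatement of the ratio of the means. That fit estimates spread also from genes at 0 in every library, such as Airn and Rasgrf1, so its SE and p-value are uncertain. With a minimum of 0.5 RPKM the SE was 0.17. A lower minimum of 0.5 RPKM, chosen after seeing the data, gives no support of its own, since H19 passes it through its EB3 values alone (0.644% of genes were called there). The call was lost, with adjusted p from 0.113 to 0.119 in limma, when A6, C4, EB3-1 or EB3-2 was left out, and it was lost at 0.160 with EB3-1 and EB3-2 averaged as 1 library. A permutation of the 6 libraries, done exactly, gave p = 0.1, which is the least it can give with 3 in each group. No other member passed the fit without a minimum.

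Igf2 (chr7:149836673-149844709, minus strand), the growth factor gene expressed from the father's copy, showed no such separation. It had 1.21, 1.66 and 1.52 RPKM in A6, B8 and C4 and 1.55, 1.99 and 1.67 RPKM in EB3-0, EB3-1 and EB3-2. The groups overlapped, and the log2 difference was -0.19 ± 0.17 (SE) with an adjusted p of 0.610 from limma.

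**Figure D2:**
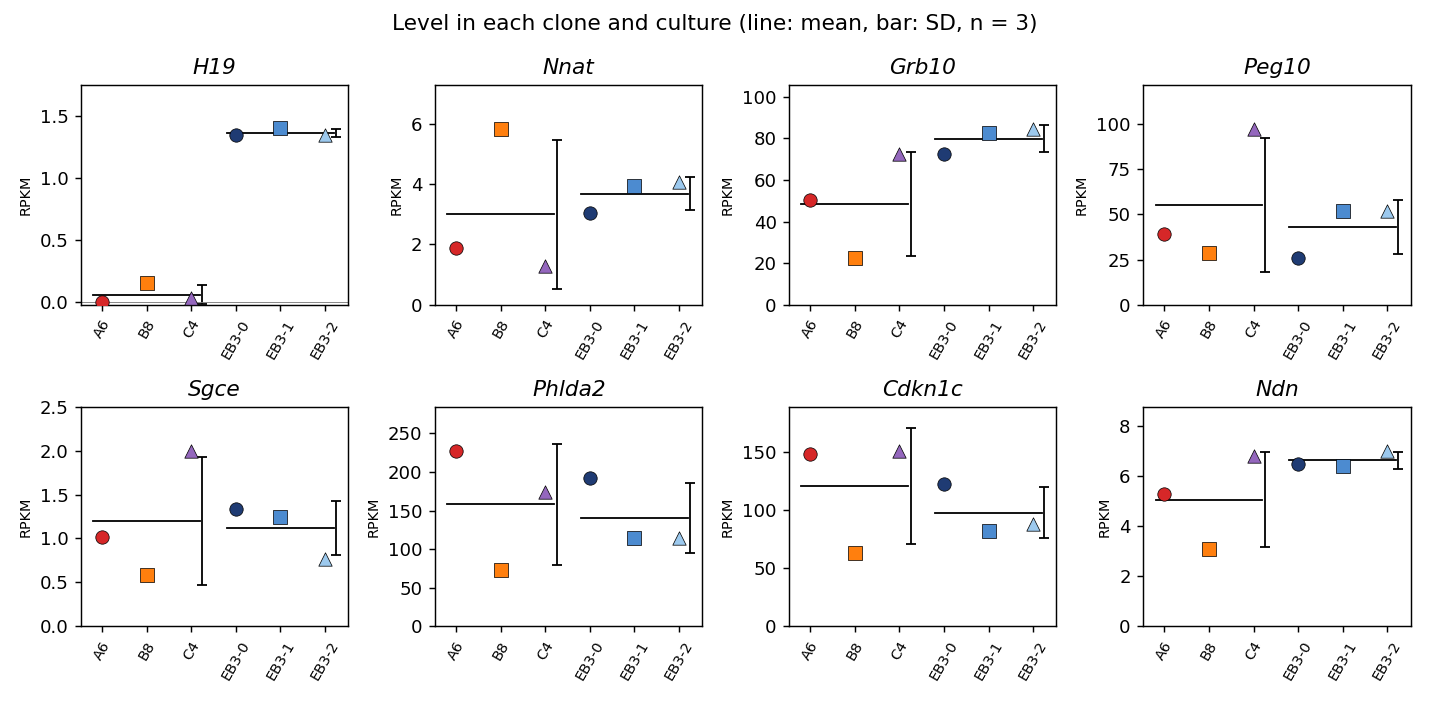
RPKM (linear axis) of H19 and of the 7 genes with the widest spread between clones, in each clone and culture, with the mean (line) and SD (bar, n = 3) of each group. H19 lies at 0.148 RPKM or below in the clones and at 1.35 or above in EB3, while the other 7 genes overlap between the groups and are spread out among the clones.

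Grb10 (chr11:11830502-11937423, minus strand) encodes an adaptor protein that dampens insulin and growth factor signalling, and both of its listed starts are printed above. A6, B8 and C4 had 50.4, 22.3 and 72.4 RPKM. EB3-0, EB3-1 and EB3-2 had 72.4, 82.7 and 84.6 RPKM. B8 was lower than each of the other 5 libraries by at least 1 on the log2 scale, as it was for 0.302% of all tested genes, and C4 reached the range of the cultures. The group difference was -0.87 ± 0.36 (SE), with an adjusted p of 0.259 from limma, and it was -0.40 without B8. Grb10 was the only member for which a clone stood apart in this way. Over all libraries and tested members, 3 of 174 values stood apart (0.229% of the values of all tested genes), and the other 2 were Peg3 and Ube3a in EB3-0, of which Ube3a no longer did with a pseudocount of 1, with medians centred or with trends removed.

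Nnat (chr2:157385846-157388255, plus strand), which encodes the small membrane protein neuronatin and is expressed from the father's copy, went the other way in B8. It had 1.88, 5.84 and 1.29 RPKM in A6, B8 and C4, from 57, 182 and 44 reads. EB3-0, EB3-1 and EB3-2 lay at 3.06, 3.92 and 4.08 RPKM, between B8 and the other 2 clones. The clone with the highest value had 4.54 times the level of the lowest, and the group difference of -0.47 ± 0.42 (SE) had an adjusted p of 0.598 from limma. Leaving out B8 moved it to -1.01, leaving out A6 to -0.31 and leaving out C4 to -0.10. Nnat lies inside an intron of Blcap on the opposite strand, and Blcap had between 30.7 and 36.6 RPKM in the 6 libraries. Whether counting used the strand was not stated.

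The distal cluster of chromosome 7 that is governed by Kcnq1ot1 holds several growth restrainers. Cdkn1c (chr7:150644244-150646955, minus strand), the cyclin-dependent kinase inhibitor p57, had 149, 63.5 and 151 RPKM in A6, B8 and C4. Its level was 123, 82.2 and 88.1 RPKM in EB3-0, EB3-1 and EB3-2. A6 and C4 lay above all 3 cultures and B8 below them. The clone mean was 121 ± 49.9 RPKM (SD, n = 3), against 97.7 ± 22.0 RPKM for EB3 (SD, n = 3). Phlda2 (chr7:150687453-150688429, minus strand), which limits growth of the placenta, had 228, 72.5 and 174 RPKM in A6, B8 and C4. The cultures EB3-0, EB3-1 and EB3-2 had 193, 115 and 114 RPKM of Phlda2. Both genes are expressed from the mother's copy, lie close to each other, and had B8 as their lowest library.

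The group differences of these 2 genes were small next to that spread. They were 0.23 ± 0.32 (SE) for Cdkn1c, adjusted p = 0.754 from limma, and 0.06 ± 0.39 for Phlda2, adjusted p = 0.955. The Cdkn1c difference was 0.03 without A6, 0.64 without B8, 0.02 without C4, 0.40 without EB3-0 and 0.12 without EB3-1. The Phlda2 difference turned to -0.28 without A6 and was 0.55 without B8 and 0.31 without EB3-0. Phlda2 has a short cDNA of 737 bases, and EB3-0 read short transcripts higher than the other cultures. With the length trend removed, Phlda2 stood at 162, 118 and 118 RPKM in EB3-0, EB3-1 and EB3-2 and at 79.0 RPKM in B8.

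Kcnq1ot1, the long noncoding RNA from the father's copy that governs this cluster, was low and not tested. It had 0.156, 0.106 and 0.101 RPKM in A6, B8 and C4 and 0.0843, 0.240 and 0.235 RPKM in EB3-0, EB3-1 and EB3-2, lowest in EB3-0, and shares its place with Kcnq1 on the other strand. Ascl2, a transcription factor gene of the trophoblast lineage, had 7.47, 5.27 and 5.90 RPKM in A6, B8 and C4 and 5.82, 5.43 and 5.97 RPKM in the EB3 cultures. Slc22a18, a transporter gene beside Cdkn1c, had 3.92, 2.61 and 1.95 RPKM in the clones and 2.66, 2.28 and 2.08 RPKM in the cultures. A6 was the highest library for both.

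The edge of the cluster was close to even. The tetraspanin gene Cd81 had 114, 122 and 110 RPKM in A6, B8 and C4 and 126, 118 and 116 RPKM in EB3-0, EB3-1 and EB3-2. Tssc4 had 45.9, 46.5 and 47.9 RPKM in the clones and 45.1, 41.0 and 41.8 RPKM in the cultures. The groups did not overlap for Tssc4, but its log2 difference was 0.13 ± 0.08 (SE) and its adjusted p from limma was 0.450.

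Markers listed for the trophoblast lineage were set beside these B8 values, and 2 keratin genes among them were raised in B8. The trophoblast markers measured, 6 of 7 listed, summed to 35.8 RPKM in B8 and to between 9.90 and 15.4 in the other libraries. That sum came mainly from the keratin genes Krt8 and Krt18, at 21.7 and 11.9 RPKM in B8. The defining factors of the lineage were low throughout, Cdx2 at 0.470 RPKM in B8 and at most 0.660 elsewhere, and Elf5 at 0 in B8. The part of such cells in the B8 values was not tested.

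Peg10 and Sgce are expressed from the father's copy and start next to each other on chromosome 6 in opposite directions. Peg10 (chr6:4697306-4710516, plus strand), a retrotransposon-derived gene needed in the placenta, had 39.1, 28.7 and 97.4 RPKM in A6, B8 and C4. Its level was 25.8, 51.7 and 52.0 RPKM in EB3-0, EB3-1 and EB3-2. Sgce (chr6:4624350-4697204, minus strand), which encodes epsilon-sarcoglycan, had 1.02, 0.581 and 2.00 RPKM in A6, B8 and C4. The cultures had 1.34, 1.24 and 0.765 RPKM of Sgce.

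C4 was the highest library and B8 the lowest clone for both genes of the pair, while their levels differed widely. C4 exceeded B8 by 1.75 for Peg10 and by 1.21 for Sgce on the log2(RPKM + 0.5) scale. The Sgce values rest on 46, 27 and 102 reads in the clones. Neither passed the test between the groups, with adjusted p of 0.834 for Peg10 and 0.997 for Sgce in limma, and the log2 difference of Peg10, 0.22, turned to -0.29 without C4. Asb4, further along the same cluster, had 0.133, 0.0473 and 0.0969 RPKM in A6, B8 and C4 and 0.0446, 0.137 and 0.152 RPKM in EB3, and was not tested.

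In the cluster of Snrpn and Ube3a on chromosome 7, the genes near one another did not share a pattern. Ndn (chr7:69493163-69494813, plus strand), a MAGE family gene expressed from the father's copy, had 5.31, 3.08 and 6.83 RPKM in A6, B8 and C4. Its EB3 values were 6.50, 6.41 and 7.03 RPKM. B8 was the lowest library, C4 lay within the range of the cultures, and the group difference was -0.42 ± 0.24 (SE), adjusted p = 0.416 from limma, or -0.13 without B8 and -0.65 without C4. Its neighbour Mkrn3 (chr7:69562479-69565025, minus strand), a RING finger gene also from the father's copy, had 5.04, 6.31 and 6.40 RPKM in the clones.

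The cultures EB3-0, EB3-1 and EB3-2 had 7.19, 7.68 and 7.88 RPKM of Mkrn3. All 3 clones lay below all 3 cultures, with A6 the lowest. The difference of -0.34 ± 0.13 (SE) had the smallest adjusted p of the tested members, 0.244 in limma, and an exact permutation p of 0.1. Snrpn, which encodes a protein of the splicing machinery, had 43.3, 54.5 and 45.9 RPKM in A6, B8 and C4 and 57.1, 51.0 and 50.2 RPKM in the cultures. Snurf lies within it on the same strand, and how reads shared by both were counted was not stated. Magel2 had 0.154, 0.216 and 0.334 RPKM in the clones and 0.212, 0.513 and 0.493 RPKM in the cultures, and was not tested.

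Ube3a (chr7:66484122-66562097, plus strand), a ubiquitin ligase gene imprinted in neurons, showed how far 1 culture could decide a comparison. It had 21.3, 22.4 and 20.7 RPKM in A6, B8 and C4. EB3-0 had 9.97 RPKM, and EB3-1 and EB3-2 had 27.5 and 28.8. The clones were even and sat between the low culture and the other 2. On all 6 libraries the log2 difference was 0.10 ± 0.35 (SE), adjusted p = 0.911 from limma. Without EB3-0 it was -0.38 ± 0.08, adjusted p = 0.0410 from limma, in a fit where 5.99% of all tested genes passed.

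The same culture was low for Peg3 (chr7:6658671-6683130, minus strand), a zinc finger gene expressed from the father's copy. Peg3 had 11.2, 16.5 and 14.6 RPKM in A6, B8 and C4, and 3.69, 12.6 and 12.2 RPKM in EB3-0, EB3-1 and EB3-2. EB3-0 stood apart, 1 or more below each other library on the log2 scale, as it did for 0.664% of all tested genes. The group difference of 0.70 ± 0.40 (SE) had an adjusted p of 0.413 in limma and shrank to 0.16 without EB3-0. Its cluster partners were low and not tested. Usp29 had 0.163, 0.111 and 0.111 RPKM in the clones and 0.290, 0.184 and 0.319 RPKM in the cultures, the groups not overlapping. Zim1 had 0.171, 0.0665 and 0.283 RPKM in the clones and 0.126, 0.288 and 0.350 RPKM in the cultures.

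The low values of EB3-0 went with transcript length. The SD over the 3 EB3 cultures reached 0.5 in 5 of the 29 tested members (17.2%), against 3.7% of all tested genes, and these were Meg3, Peg3, Peg10, Ube3a and Zdbf2. Each of them has a cDNA of at least 5000 bases and each was low in EB3-0. Of the 8 tested members of that length 7 were lower in EB3-0 than the mean of EB3-1 and EB3-2, with a median of -1.13 on the log2 scale against -0.41 for all tested genes of that length. Rtl1 was the exception at 0.03. Zdbf2, a gene expressed from the father's copy with the longest cDNA of the tested members (12621 bases), had 4.85, 12.3 and 12.6 RPKM in EB3-0, EB3-1 and EB3-2 and 8.33, 10.8 and 9.57 RPKM in A6, B8 and C4.

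Taking the length trend out of each library brought the SD over EB3 down to 0.33 for Meg3, 0.33 for Peg10 and 0.29 for Zdbf2. Peg3 and Ube3a kept SDs of 0.70 and 0.67, and of 0.68 and 0.51 with the trend in GC content removed as well. What further differs in EB3-0 for these 2 genes was not tested.

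**Figure D3:**
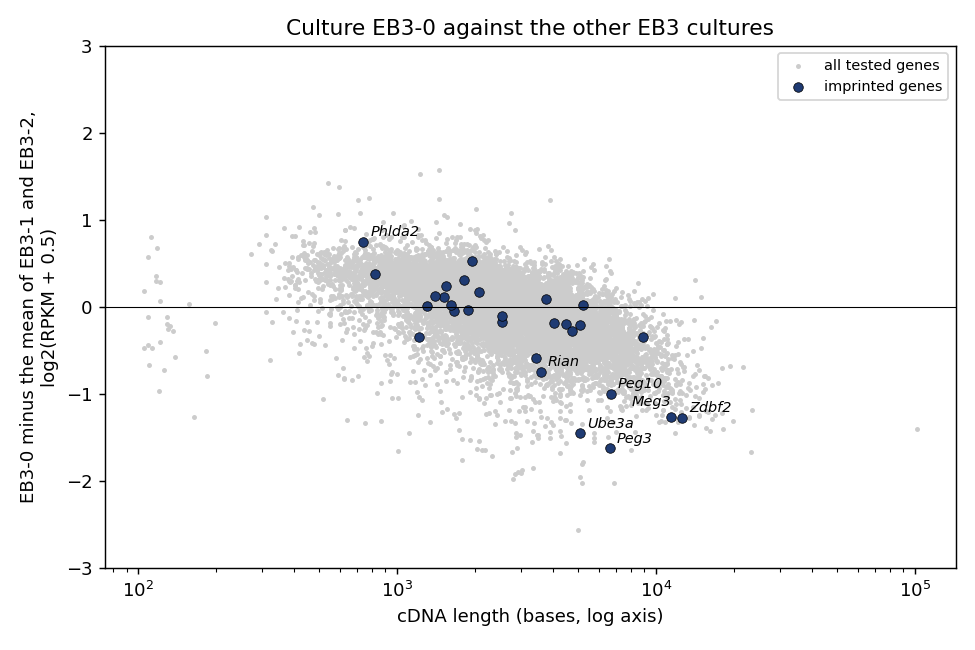
Difference of EB3-0 from the mean of EB3-1 and EB3-2 in log2(RPKM + 0.5) (vertical axis) against cDNA length in bases (horizontal log axis), for all tested genes (grey) and the 29 tested imprinted genes (blue). Long genes lie mostly below 0, and Peg3, Ube3a, Zdbf2 and Meg3 lie between -1.62 and -1.26.

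The Dlk1-Dio3 cluster of chromosome 12 makes noncoding RNAs from the mother's copy and proteins from the father's, and loss of the former is a well known defect of some ES cell clones. The noncoding RNAs were present in every library. Meg3 (chr12:110783608-110806810, plus strand) had 9.22, 18.2 and 13.97 RPKM in A6, B8 and C4 and 6.49, 16.9 and 15.7 RPKM in EB3-0, EB3-1 and EB3-2. Rian, the host of many small nucleolar RNAs, had 32.1, 48.0 and 42.9 RPKM in the clones and 34.6, 59.97 and 56.7 RPKM in the cultures. Mirg, a host of microRNAs, had 18.6, 28.2 and 22.2 RPKM in the clones and 20.5, 20.2 and 20.3 RPKM in the cultures.

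A6 was the lowest clone and B8 the highest for all 3 RNAs, at 1.97 times A6 for Meg3 and 1.52 times for Mirg. None of the 3 passed the test between the groups, the smallest adjusted p being 0.571 for Rian in limma. Their small RNAs cannot be followed in these mRNA libraries: of 25 microRNA hairpins listed inside the imprinted genes, 24 are listed at 0 in every library.

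The protein-coding genes of the cluster were at low levels. Dlk1, a secreted inhibitor of differentiation, had 0.562, 0.456 and 0.522 RPKM in A6, B8 and C4 and 0.955, 0.671 and 0.663 RPKM in EB3-0, EB3-1 and EB3-2. The groups did not overlap, but Dlk1 was under the minimum level, and its adjusted p from limma in the fit to all genes was 0.379. Rtl1, a retrotransposon-derived gene of the placenta and muscle, had 1.31, 1.505 and 1.36 RPKM in the clones and 1.02, 1.06 and 0.929 RPKM in the cultures. Its groups did not overlap either, with a log2 difference of 0.33 ± 0.16 (SE) and an adjusted p of 0.322 in limma, and 6430411K18Rik overlaps it on the opposite strand. Dio3, which inactivates thyroid hormone, had 2.28, 2.33 and 2.12 RPKM in the clones and 1.92, 1.70 and 2.28 RPKM in the cultures.

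Next to this cluster, levels in clone B8 were low along a stretch of the chromosome. Within 10 Mb on the side of lower coordinates than Meg3, 45 of 46 tested genes that are no members were lower in B8 than the EB3 mean, with a median log2 ratio of -0.89. The medians of the same genes were 0.07 in A6 and 0.05 in C4. The 5 tested members of the cluster did not share this, with a median of 0.42 in B8 and 1 of 5 below the EB3 mean, and the 53 genes within 10 Mb beyond Dio3 had a median of 0.07. The nearest of the low genes, Wdr25, lies 0.584 Mb from the start of Meg3 and had 2.67 RPKM in B8 against 5.86 to 7.01 in the other libraries. Wars beside it had 35.2 RPKM in B8 and between 76.2 and 89.0 elsewhere. The number of copies of this stretch was not measured.

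**Figure D4:**
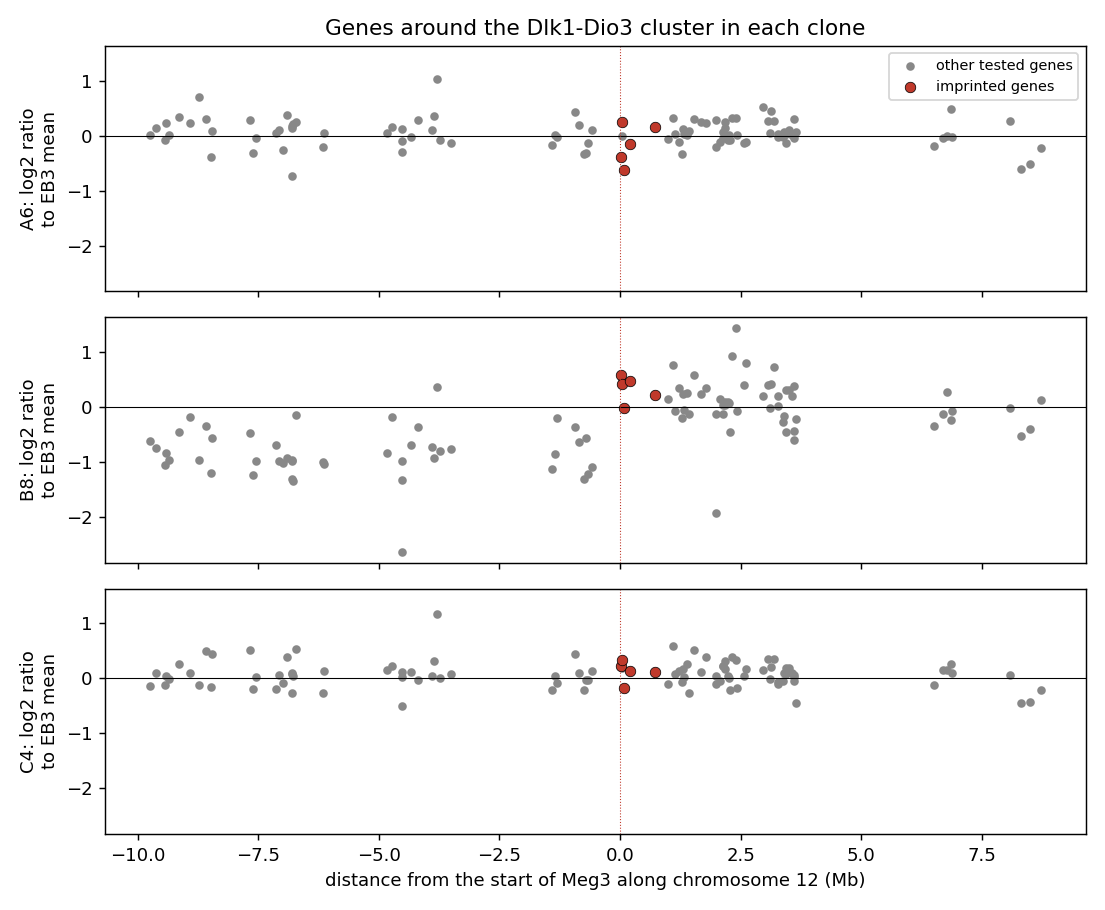
Log2 ratio to the EB3 mean of each tested gene around the Dlk1-Dio3 cluster (vertical axis) against its distance from the start of Meg3 along chromosome 12 in Mb (horizontal axis), in A6, B8 and C4. In B8 the genes to the left of the cluster have a median of -0.89 and the 5 imprinted genes (red) a median of 0.42.

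With both sides of a cluster pooled, the 37 tested neighbours within 2 Mb of the Dlk1-Dio3 cluster had a median log2 ratio to EB3 of 0.04 in B8. The genes within 2 Mb of the Kcnq1ot1 cluster had a median of 0.12 in B8, and those around Nnat one of 0.05. Around Peg10 and Sgce it was alike in the clones, at -0.27 in A6, -0.28 in B8 and -0.23 in C4, while both genes were highest in C4. Around Grb10 there were too few tested genes within 2 Mb, and the 9 within 5 Mb had a median of -0.29 in B8, where Grb10 itself was at -1.82. Ddc and Cobl, on either side of Grb10, were not low in B8. Ddc had 5.47, 10.2 and 3.82 RPKM in A6, B8 and C4 and 10.7, 8.77 and 8.70 in EB3-0, EB3-1 and EB3-2. Cobl had 57.7, 59.8 and 55.8 RPKM in the clones and 48.8, 58.8 and 59.8 in the cultures. The neighbours of the Dlk1-Dio3 cluster within 5 Mb had a median of -0.07.

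The other members with appreciable levels had smaller SDs between clones than the 7 named above. Mest, a hydrolase-like gene expressed from the father's copy, had 64.2, 44.9 and 65.5 RPKM in A6, B8 and C4 and 56.8, 65.1 and 63.5 RPKM in EB3-0, EB3-1 and EB3-2. B8 was again lowest, and the SD between clones was 0.30. Gnas, which encodes the stimulatory G protein alpha subunit from a locus with several promoters, had 53.7, 54.1 and 45.8 RPKM in the clones and 51.6, 48.6 and 47.9 RPKM in the cultures. Igf2r, the receptor that clears IGF2, had 4.70, 5.39 and 5.56 RPKM in the clones and 5.01, 6.42 and 6.55 RPKM in the cultures. Its antisense RNA Airn was listed at 0 in every library and Slc22a3, further along that cluster, at 0 in every library but EB3-1, where it had 0.0214 RPKM. Airn overlaps Igf2r, and a listed 0 can also mean that such reads were not assigned to it.

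Zrsr1, a splicing factor-like gene expressed from the father's copy, lies within an intron of Commd1, a regulator of copper balance. Zrsr1 had 6.75, 8.42 and 6.88 RPKM in A6, B8 and C4 and 6.05, 7.03 and 6.99 RPKM in EB3-0, EB3-1 and EB3-2, with B8 highest. Commd1 had 128, 114 and 118 RPKM in A6, B8 and C4 and 157, 117 and 123 RPKM in EB3, with EB3-0 highest.

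Impact, a regulator of translation under amino acid shortage, had 32.3, 42.1 and 33.3 RPKM in A6, B8 and C4 and 28.2, 44.5 and 40.8 RPKM in EB3-0, EB3-1 and EB3-2. Inpp5f, a phosphoinositide phosphatase gene, had 6.75, 7.21 and 6.02 RPKM in the clones and 6.21, 7.72 and 7.48 RPKM in the cultures. The groups overlapped for both genes.

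The remaining members were at or near 0. Plagl1, a zinc finger gene, lay between 0 and 0.109 RPKM, Nap1l5 between 0.0421 and 0.205 RPKM, and Rasgrf1 was listed at 0 in every library. In all, 12 of the 41 members were too low to be tested, and 2 of them, Airn and Rasgrf1, were at 0 throughout. 15 members overlap another listed gene, mostly on the opposite strand, and their values are uncertain to that extent.

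The genes that maintain imprints were set beside them. Of 15 listed, all 15 were tested and 0 passed an adjusted p under 0.05 in limma, against 0.699% of all tested genes, and 4 had an unadjusted p under 0.05, against 17.8%. Zfp57 itself had 170, 182 and 191 RPKM in A6, B8 and C4 and 221, 217 and 219 RPKM in EB3-0, EB3-1 and EB3-2, a log2 difference of -0.28 ± 0.09 (SE) with an adjusted p of 0.156 in limma. Dnmt3l, the cofactor of the de novo methyltransferases, had 236, 190 and 257 RPKM in the clones and 334, 327 and 342 RPKM in the cultures, adjusted p = 0.0818 in limma, the smallest of the list. In both, every clone lay below every culture, as also for Zfp42. Setdb1 and Dnmt1 went the other way. Setdb1 had 49.4 to 58.5 RPKM in the clones and 40.4 to 47.5 in the cultures, and Dnmt1 62.3 to 66.5 and 58.2 to 61.3. The log2 difference was above 0 for 5 of the 15 genes and below 0 for 10. The groups do not overlap for 26.1% of all tested genes.

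Dppa3, which protects methylation in the early embryo, was the one gene of that list for which a library stood apart. It had 14.1, 2.99 and 15.8 RPKM in A6, B8 and C4 and 21.1, 14.6 and 16.1 RPKM in EB3-0, EB3-1 and EB3-2. B8 was thus low for Dppa3 as it was for Grb10, and whether these go together was not tested. The SD between clones was 1.24 for Dppa3, and it was the only gene of the 15 to reach 0.5.

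**Figure D5:**
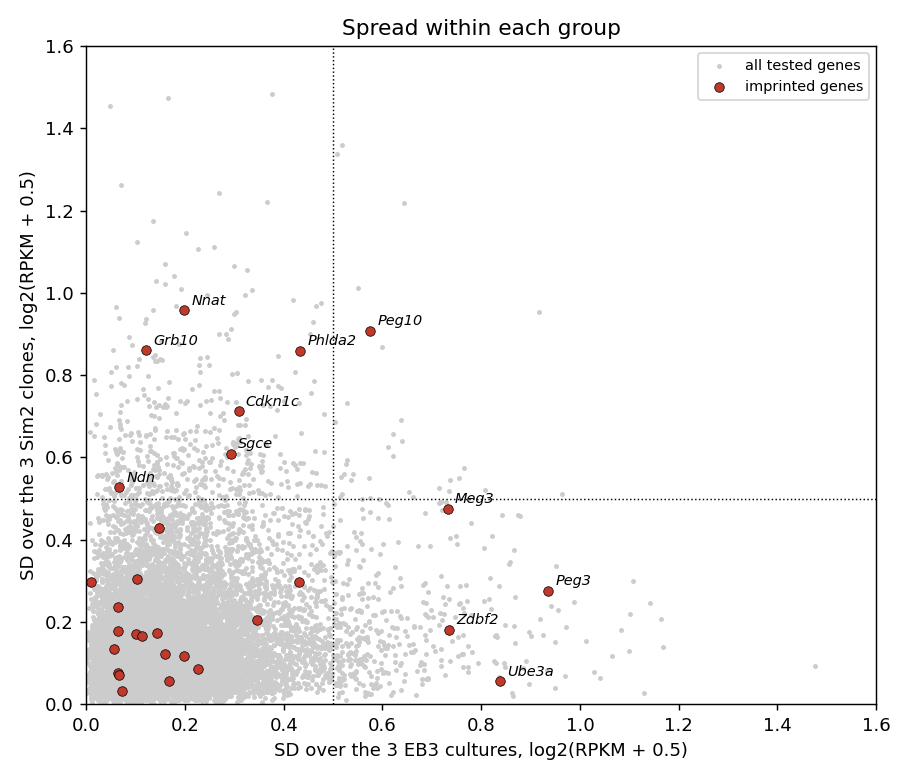
SD of log2(RPKM + 0.5) over the 3 Sim2 clones (vertical axis) against the SD over the 3 EB3 cultures (horizontal axis) for all tested genes (grey) and the 29 tested imprinted genes (red), with lines at 0.5 (2 genes lie beyond the axes). The 7 named genes above the horizontal line are spread among the clones, and the 5 to the right of the vertical line are those low in EB3-0, with Peg10 in both.

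Compared pair by pair, B8 lay further from A6 and C4 than these lay from each other. Between A6 and B8, 4 of the 29 tested members differed by at least 1 on the log2 scale, Cdkn1c, Phlda2, Grb10 and Nnat, where 2.51% of all tested genes did. Between B8 and C4 it was 7, where 2.04% of all tested genes did. Between A6 and C4 it was Peg10 alone, with A6 minus C4 at -1.31, and 0.293% of all tested genes did. Among the cultures, 4 tested members differed that much between EB3-0 and EB3-1, and none did between EB3-1 and EB3-2. The share of all tested genes was not taken for these pairs of cultures. The median absolute log2 difference between EB3-0 and EB3-1 was 0.25 over all tested genes and 0.20 over the tested members.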

How the data were processed

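mRNA was sequenced from 6 ES cell cultures. The authors mapped paired reads to build mm9 with BWA, counted exon coverage per gene, and deposited RPKM values, positions and the cDNA length of each gene in bases. The tool's version, the use of strand and the treatment of reads with several positions were not given in the sources used here. The authors tested with edgeR. Here, since the deposited unit is RPKM, log2(RPKM + 0.5) was tested with limma 3.58.1 (R 4.3.3; lmFit, then eBayes with trend), no covariate being used, for genes with a mean of at least 1 RPKM, with Benjamini-Hochberg adjustment over all tested genes. Permutation tests were exact and 2-sided. RPKM times cDNA length was a whole multiple of 1 step for 100% of values (tolerance 0.05 reads), which gave the reads per gene; no count model was run on them. The fit was tested on simulated data. A library stood apart where it lay at least 1 above or below each other library on the log2 scale. For some fits, trends with cDNA length and exon GC content (98.3% of tested genes) were removed by natural splines of 5 degrees of freedom. Members were given in every library where they passed a test, stood apart, averaged at least 5 RPKM or were the cluster partner of such a gene. The members, gene lists and tests were chosen with earlier results of these data known.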

Additional observations from a re-analysis of the deposited data

How the results depend on the processing

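The number of members that differed between Sim2 clones and EB3 was 0 with all 6 libraries, with pseudocounts of 0.1 and 1, with a minimum of 5 RPKM, with medians centred, with length trends or GC and length trends removed, and with EB3-1 and EB3-2 averaged. It was 1 (H19) without a minimum level and 1 (H19) with a minimum of 0.5 RPKM, which H19 passes only through EB3, so that this last count supports nothing, and leaving out 1 library gave 0 to 1 (Ube3a, without EB3-0). The number of tested genes that differed, 81, was 23 without a minimum, 250 with length trends removed, 171 with GC and length trends removed, and 6 with EB3-1 and EB3-2 averaged. It ran from 6 to 694 with 1 library left out, the highest without EB3-0, the lowest without EB3-1 or EB3-2. Centring gave 66, of which 39.4% were higher in the clones against 49.4%. The H19 difference ran from -1.86 to -1.67 with 1 library left out, with adjusted p of 0.00950 to 0.119 in limma. It lost its call without A6 (-1.67), C4 (-1.71), EB3-1 (-1.73) or EB3-2 (-1.76), and with EB3-1 and EB3-2 averaged (-1.74, adjusted p = 0.160). Signs turned for Phlda2 (-0.0627 with EB3-1 and EB3-2 averaged; with 1 library left out -0.28 to 0.55, -0.28 without A6, -0.08 without C4, -0.06 without EB3-1 and -0.07 without EB3-2), for Peg10 (-0.29 to 0.58, -0.29 without C4, -0.11 without EB3-0) and for Ube3a (-0.38 to 0.36, the lowest without EB3-0). The cause was not tested. Values that stood apart numbered 3, or 7 with a gap of 0.5 and 0 with a gap of 1.5, and 2 (without Ube3a in EB3-0) with a pseudocount of 1, with medians centred, with length trends removed or with GC and length trends removed. Members with a wide spread over the clones numbered 7, and 3 to 7 with 1 clone left out. Of the other values, for named genes and the medians of cluster neighbours, 291 kept their direction and side of the threshold or moved by less than the spread between libraries, and 56 of the medians moved by more. The fits with GC trends removed, with a minimum of 0.5 RPKM and for H19 with libraries left out or averaged, and the limit on the spread, were chosen after seeing the data. No paired analysis was possible because the labels give clone names to one group and culture numbers to the other. Depth limits the lowest members, such as Slc22a3, Plagl1 and Nap1l5, which had between 0 and 15 reads in each library.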
